A study of Mus musculus with 12 samples.

Results

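The nuclear genes for the enzyme complexes I to V of oxidative phosphorylation were followed through left ventricles of transgenic mice that carry a drug-inducible form of the transcription factor ATF6. Members were the probe sets whose platform symbol begins with Nduf and a subunit letter and number (complex I), is Sdha to Sdhd (complex II), or begins with Uqcr (complex III), with Cox and a subunit number and letter (complex IV) or with Atp5 (complex V). The rule found 171 of the 45101 probe sets on the array. Of these, 7 carried several symbols and were not named, and the other 164 stood for 81 genes: 35 of complex I, 4 of complex II, 8 of complex III, 17 of complex IV and 17 of complex V. After dim probe sets were left out, 78 genes were tested (34, 4, 8, 15 and 17), among 11165 genes in all. Cox6b2, Cox7b2 and the 1-symbol probe set of Ndufb4 lay below that filter, at a mean log2 intensity under 9.42. The 2 other probe sets of Ndufb4, which also carry the symbols Ndufb4b and Ndufb4c, were bright (17.21 and 16.61) and were not tested as a gene.

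The series profiled 12 male C57BL/6 mice, 3 in each of 4 groups, with an array for each left ventricle. Transgenic (TG) mice carried ATF6-MER, in which ATF6 is joined to a mutant mouse estrogen receptor domain so that tamoxifen switches it on, and were given tamoxifen or vehicle. Their non-transgenic (NTG) littermates were given tamoxifen or vehicle in the same way, so that NTG tamoxifen shows the drug without the fusion and TG vehicle the fusion without the drug. The mice were about 30 weeks old, except that TG tamoxifen 1 is labelled 40 weeks. The sources used here name neither the promoter that drives the transgene nor the cells that carry it.

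The conflicts between labels and data came before any result. TG vehicle 3 is titled vehicle, but its treatment field says tamoxifen. Its log2 intensity of Hspa5, an ER chaperone gene that ATF6 induces, was 15.94. TG vehicle 1 and 2 read 16.39 and 15.76, and the 3 TG tamoxifen arrays lay between 18.37 and 18.47. The array labelled NTG tamoxifen 1 went against its label. It read 17.72 for Esr1, the gene of the receptor domain in the fusion, where the 6 TG arrays read 16.66 to 18.25 and the other NTG arrays 10.88 or less. Its Hspa5 was 18.05, against 15.65 and 15.49 in NTG tamoxifen 2 and 3. Groups follow the titles, and counts and the main NTG values are given with and without these arrays. All 10 cardiomyocyte markers lay above the filter, as did 6 of 6 endothelial, 6 of 6 fibroblast and 6 of 7 macrophage and leukocyte markers. Of the smooth muscle markers 3 of 4 did, of the adipocyte markers 1 of 4 and of the red blood cell markers 1 of 2. Median intensity ran from 648 to 834 per array.

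Oxidative phosphorylation makes most of the ATP of the beating heart. Complex I takes electrons from NADH and complex II from succinate, ubiquinone carries them to complex III, cytochrome c carries them to complex IV, and the proton gradient that builds up along the way drives the ATP synthase, complex V. Complexes I and III to V also contain subunits encoded by mitochondrial DNA, and the genes described here encode nuclear subunits, among them many accessory subunits and, in complex IV, isoforms that differ between tissues.

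Stretches of promoter are shown for 4 members. Ndufs8 and Ndufs3, which encode neighbouring core subunits of complex I, had the smallest adjusted p-values of the members in TG tamoxifen against TG vehicle. Atp5g2 and Atp5g3 encode the same mature c subunit of complex V but differed in their values on their brightest probe sets. For Atp5g2 the value depended on the probe set. Each stretch holds the 150 bases just before the RefSeq gene start on the minus strand of GRCm38.p6, written 5′ to 3′. They lie at chr19:3912775-3912924 (Ndufs8), chr2:90904722-90904871 (Ndufs3), chr15:102671048-102671197 (Atp5g2) and chr2:73911327-73911476 (Atp5g3). Capitals mark a GABP (ETS) motif in Ndufs3, an NRF1 motif in Atp5g2 and an ERR alpha response element, read on the opposite strand, in Atp5g3. The match in Ndufs8 lies after the start, outside the stretch shown.
Ndufs8: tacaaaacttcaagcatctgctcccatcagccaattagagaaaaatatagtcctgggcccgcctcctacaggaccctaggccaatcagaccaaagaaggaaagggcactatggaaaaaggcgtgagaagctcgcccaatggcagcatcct
Ndufs3: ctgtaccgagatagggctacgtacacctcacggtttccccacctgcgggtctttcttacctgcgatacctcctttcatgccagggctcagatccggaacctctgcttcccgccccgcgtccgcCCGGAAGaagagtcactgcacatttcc
Atp5g2: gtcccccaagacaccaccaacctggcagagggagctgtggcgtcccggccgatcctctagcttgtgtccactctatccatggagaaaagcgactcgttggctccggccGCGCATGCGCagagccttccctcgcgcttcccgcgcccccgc
Atp5g3: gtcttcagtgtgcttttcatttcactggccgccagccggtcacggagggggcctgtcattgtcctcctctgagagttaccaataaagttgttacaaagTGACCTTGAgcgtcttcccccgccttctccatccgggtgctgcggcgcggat

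In the transgenic hearts tamoxifen went with lower members of every complex. Of 78 tested members, 32 (41%) were lower and 0 were higher in TG tamoxifen than in TG vehicle at a limma adjusted p under 0.05. Over all genes tested, 14.4% were lower and 10.4% higher, so that 24.8% changed in either direction. The median log2 change was -0.39 over the members and -0.07 over all genes, and 72 of 78 members had a negative change. In 58 of 78 members all TG tamoxifen arrays lay below all TG vehicle arrays, and in 2 (Ndufa2 and Atp5g1) all lay above, where the 2 groups of arrays were fully separated in 24.4% of all genes in the lower and 19.8% in the higher direction. In ventricle tissue, fewer cells of a type and less RNA per cell cannot be told apart.

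The counts of lower members were 18 of 34 in complex I (52.9%, median log2 change -0.50), 2 of 4 in complex II (-0.52), 4 of 8 in complex III (-0.44), 3 of 15 in complex IV (20%, -0.24) and 5 of 17 in complex V (29.4%, -0.30). Differences between complexes were not tested. The 10 members with a mean log2 intensity of 18 or more, of which 0 were lower, were all outside complex I. The deposited scaling gave complex IV 5 of 15 (median -0.46) and complex V 9 of 17 (-0.52), beside 23 of 34 in complex I, and the eBayes trend gave 6 of 15, 10 of 17 and 23 of 34. The median deviation of the members from their NTG vehicle means was -0.47, -0.40 and -0.35 on the TG tamoxifen arrays, 0.02, -0.06 and -0.01 on the TG vehicle arrays, and -0.15, -0.02 and -0.11 on the NTG tamoxifen arrays. All 3 TG tamoxifen arrays lay below the other arrays in this summary. In complexes II and III the array labelled NTG tamoxifen 1 was also low: its median was -0.65 in complex II and -0.37 in complex III, where the TG tamoxifen arrays had -0.46 to -0.40 and -0.39 to -0.36. The count of 32 fell to 16 without TG tamoxifen 1, to 17 without TG tamoxifen 2 and to 19 without TG tamoxifen 3, and complex I then had 11, 11 and 12 lower members. Leaving out TG vehicle 3 gave 22, and leaving out the array labelled NTG tamoxifen 1, which is in neither group but adds to the estimate of the spread, gave 36. Counts over all genes moved in the same directions. Lower genes numbered 1608 of 11165 in the main fit and 938 of 11174 without TG tamoxifen 1. They numbered 1189 of 11139 without TG vehicle 3 and 1829 of 11167 without the array labelled NTG tamoxifen 1. With TG vehicle 3 counted as TG tamoxifen 0 members passed in limma (16 at an unadjusted p under 0.05), and with TG vehicle 3 and TG tamoxifen 1 both left out 6 passed.

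**Figure D1:**
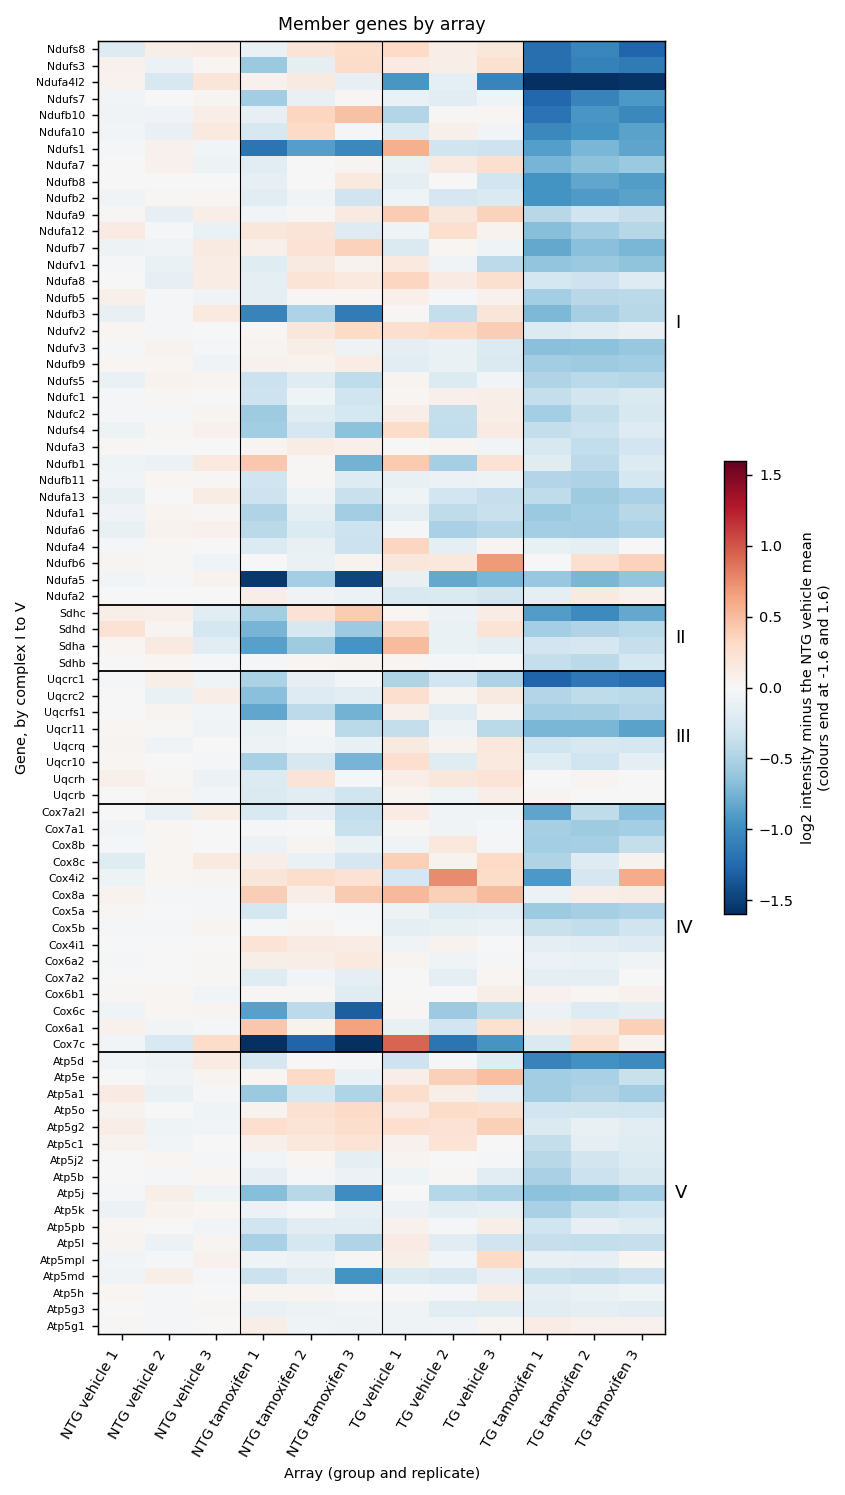
Log2 intensity of each tested member (rows, by complex) on each of the 12 arrays (columns) minus the gene's NTG vehicle mean, with colours ending at -1.6 and 1.6. Blue fills most of the complex I rows on all 3 TG tamoxifen arrays, and Ndufs1, Ndufa5, Cox6c and Cox7c are blue in NTG tamoxifen, Ndufs1 and Ndufa5 also in TG tamoxifen.

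**Figure D2:**
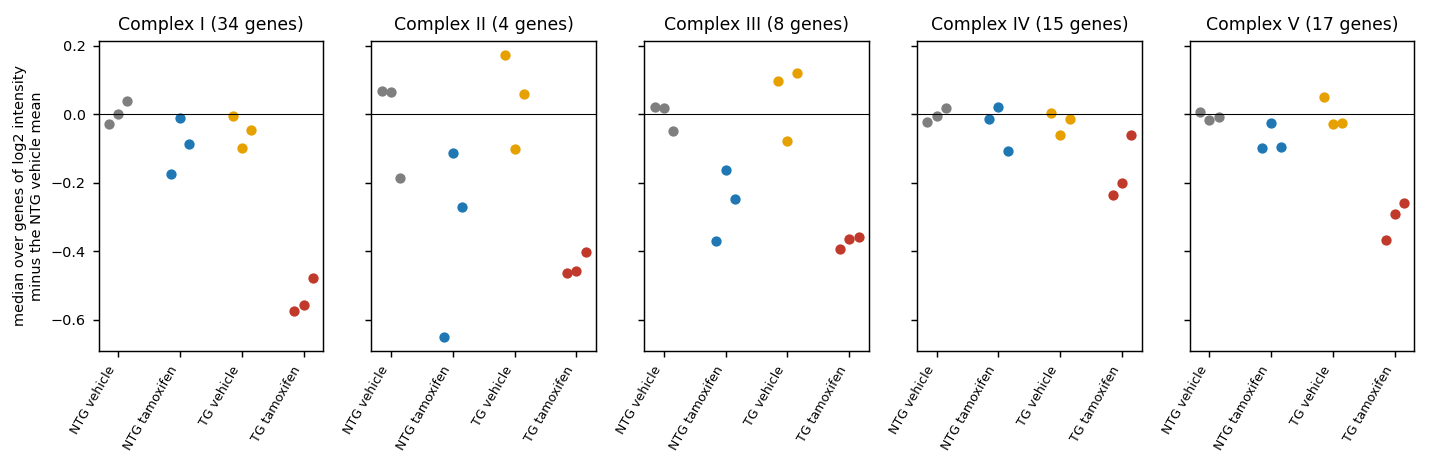
Median over the tested members of a complex of the log2 deviation from the NTG vehicle mean, with a point for each array. In complex I the TG tamoxifen arrays lie between -0.57 and -0.48 and the other arrays between -0.18 and 0.04, and in complex IV TG tamoxifen 3 (-0.06) lies level with TG vehicle 2 (-0.06).

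Complex I is built from an NADH-oxidising N module, a ubiquinone-reducing Q module and a proton-pumping P module in the membrane. The lower members were spread over all 3: 5 of 9 tested genes of the N module, 3 of 4 of the Q module and 9 of 18 of the P module. The Q module had a median log2 change of -1.13, against -0.49 for the N module and -0.45 for the P module.

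Ndufs8 encodes a Q module subunit that holds iron-sulfur clusters. Its log2 intensity was 16.28, 16.45 and 16.22 in TG tamoxifen and 17.80, 17.59 and 17.67 in TG vehicle. It was 17.39, 17.69 and 17.76 in NTG tamoxifen and 17.28, 17.58 and 17.60 in NTG vehicle. Every TG tamoxifen array lay below every other array, with no overlap. Ndufs8 fell by 1.37 ± 0.17 (log2 change ± SE, n = 3 per group, limma adjusted p = 0.0016), a 2.59-fold difference. All changes here are on the scale of log2(intensity + 16). The p-values are adjusted over all 11165 genes and set a difference against the spread between mice within the 4 groups. All 6 probe sets of Ndufs8 were lower, with log2 changes from -1.59 to -0.90.

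Ndufs3, a core subunit of the same module, read 15.48, 15.61 and 15.56 in TG tamoxifen and 16.82, 16.78 and 16.93 in TG vehicle. In NTG tamoxifen it read 16.10, 16.54 and 16.98, the lowest of them on the array labelled NTG tamoxifen 1, and in NTG vehicle 16.76, 16.59 and 16.72. It fell by 1.29 ± 0.20 with tamoxifen in TG hearts (limma adjusted p = 0.0024). Ndufs7, which carries the last iron-sulfur cluster before ubiquinone, had 15.82, 16.01 and 16.15 in TG tamoxifen and 16.96, 16.90 and 17.01 in TG vehicle, and fell by 0.97 ± 0.18 (adjusted p = 0.0041). Ndufa5, an accessory subunit of the Q module, differed from these neighbours: its log2 change was -0.10 ± 0.26 and its arrays overlapped.

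In the N module, Ndufs1, the large iron-sulfur subunit, fell by 0.79 ± 0.23 (limma adjusted p = 0.027), although TG vehicle 1 at 17.00 stood well above TG vehicle 2 and 3 at 16.10 and 16.09. Ndufv2, an iron-sulfur subunit, fell by 0.49 ± 0.14, and the accessory gene Ndufa7 by 0.76 ± 0.15 (adjusted p = 0.0060). Ndufv1, which binds NADH and the flavin, had a log2 change of -0.52 ± 0.18 and missed the threshold (adjusted p = 0.053). Ndufv1 was the only gene of the 6 catalytic core genes tested (Ndufs1, Ndufs3, Ndufs7, Ndufs8, Ndufv1 and Ndufv2) that was not past it. Ndufa2 had a positive change, 0.28 ± 0.14 (adjusted p = 0.17), with all TG tamoxifen arrays above all TG vehicle arrays.

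The 9 lower genes of the P module were Ndufa8, Ndufa9, Ndufa10, Ndufb2, Ndufb5, Ndufb7, Ndufb8, Ndufb9 and Ndufb10, all accessory subunits around the membrane arm. Ndufb10 fell by 0.91 ± 0.20 and Ndufb9 by 0.39 ± 0.13, which span the range of the 9. Ndufb10 read 16.41, 16.65 and 16.56 in TG tamoxifen, 17.12, 17.61 and 17.63 in TG vehicle and 17.46, 17.94 and 18.06 in NTG tamoxifen. The TG tamoxifen arrays were again the lowest of these, and TG vehicle 1 was the lowest of its own group. Ndufa9, which sits where the peripheral and membrane arms meet, read 16.36 to 16.49 in TG tamoxifen and 16.99 to 17.22 in TG vehicle, while its 6 NTG arrays lay in between, from 16.67 to 16.95. The 18th lower gene of the symbol rule, Ndufa4l2, is a paralog of Ndufa4 that is known to rise in low oxygen. Its log2 intensity was 10.16, 10.44 and 10.59 in TG tamoxifen, 11.22, 12.00 and 11.10 in TG vehicle, 12.22, 12.30 and 12.02 in NTG tamoxifen and 12.21, 11.90 and 12.34 in NTG vehicle. The TG tamoxifen arrays were the lowest of the 12, and Ndufa4l2 fell by 1.04 ± 0.24 against TG vehicle (limma adjusted p = 0.011). Ndufa4 itself, named for complex I but now known as a subunit of complex IV, had a log2 change of -0.17 ± 0.16 with overlapping arrays.

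**Figure D3:**
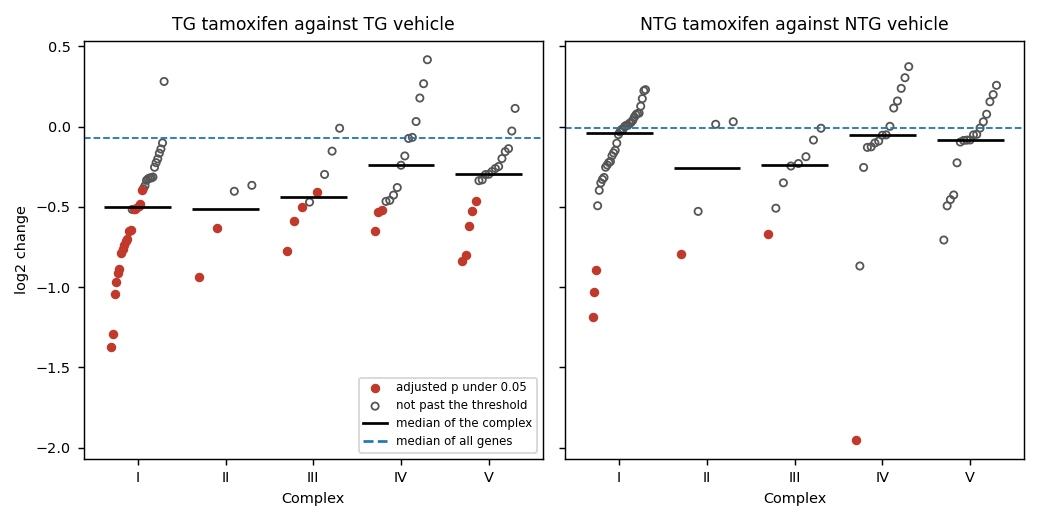
Log2 change of each tested member by complex, for TG tamoxifen against TG vehicle (left) and NTG tamoxifen against NTG vehicle (right), with filled points at an adjusted p under 0.05, black bars for the median of the complex and a dashed line for the median of all genes. In the left panel 32 of 78 points are filled, 18 of them in complex I, and in the right panel 6 are filled.

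In complex II the membrane anchors passed the threshold and the catalytic pair did not. Sdhc, an anchor that helps bind ubiquinone, read 15.27, 15.16 and 15.35 in TG tamoxifen and 16.21, 16.08 and 16.30 in TG vehicle. It fell by 0.93 ± 0.23 (limma adjusted p = 0.014), with the groups well apart, and Sdhd, the other anchor, fell by 0.63 ± 0.19 (adjusted p = 0.035). The flavoprotein Sdha had a log2 change of -0.40 ± 0.20 (adjusted p = 0.16) and the iron-sulfur subunit Sdhb one of -0.37 ± 0.13 (adjusted p = 0.063). TG vehicle 1 stood apart in Sdha, at 17.37 against 16.75 and 16.72, and without it the change of Sdha was -0.19. In all 4 genes the TG tamoxifen arrays were below the TG vehicle arrays without overlap. A difference between the anchors and the catalytic pair was not tested, and the 95% intervals of Sdha (-0.84 to 0.03) and Sdhd (-1.05 to -0.21) overlapped.

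Complex III had 4 lower genes of 8. Uqcrc1, a core protein, read 16.12, 16.25 and 16.19 in TG tamoxifen and 16.92, 17.09 and 16.89 in TG vehicle, and fell by 0.77 ± 0.16 (limma adjusted p = 0.0074). Its NTG arrays read 16.89, 17.26 and 17.35 with tamoxifen and 17.37, 17.49 and 17.34 with vehicle, so that every TG tamoxifen array was lower than every other array. Uqcrc2, the other core protein, fell by 0.59 ± 0.17 (adjusted p = 0.027), but the array labelled NTG tamoxifen 1 was lower still, at 17.01 against 17.21, 17.27 and 17.25 in TG tamoxifen. Uqcrfs1, the Rieske iron-sulfur protein, fell by 0.50 ± 0.16 (adjusted p = 0.038). The small subunit Uqcrq fell by 0.41 ± 0.13 (adjusted p = 0.043) on a probe set that may match several transcripts, while its other probe set, close to the filter, gave 0.02. Uqcr11 had a log2 change of -0.47 ± 0.16 (adjusted p = 0.055), and Uqcrb, the ubiquinone-binding protein, one of -0.01 ± 0.13.

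In complex IV, 3 of 15 genes were lower. Cox7a2l fell by 0.65 ± 0.16 (limma adjusted p = 0.016), on a probe set that may match several transcripts. The other pair are isoforms found mainly in heart and skeletal muscle. Cox7a1 read 17.23, 17.19 and 17.21 in TG tamoxifen and 17.78, 17.71 and 17.74 in TG vehicle, a narrow spread in both groups, and fell by 0.53 ± 0.15 (adjusted p = 0.023). Cox8b fell by 0.52 ± 0.14 (adjusted p = 0.022).

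The isoforms did not all move with these. Cox6a2, also a muscle isoform, had a log2 change of -0.07 ± 0.13 (95% interval -0.36 to 0.21). The widely expressed counterparts had -0.07 ± 0.14 (Cox7a2), 0.27 ± 0.20 (Cox6a1) and -0.43 ± 0.15 (Cox8a, adjusted p = 0.057), so that 2 of 3 muscle and 0 of 3 widely expressed isoforms passed the limma threshold, of which Cox8a alone had an unadjusted p under 0.05. Cox4i1 had -0.18 ± 0.13, Cox4i2, the isoform tied to low oxygen, -0.46 ± 0.34, and Cox6b1 0.03 ± 0.14. The sign of Cox6b1 turned to -0.30 with the deposited scaling and -0.16 with median centring. Cox7c was not called (0.42 ± 0.48), but TG vehicle 1 stood apart at 11.14 against 9.04 and 9.26 (both below the filter level of 9.42), and without it Cox7c rose by 1.08 (adjusted p = 0.038).

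**Figure D4:**
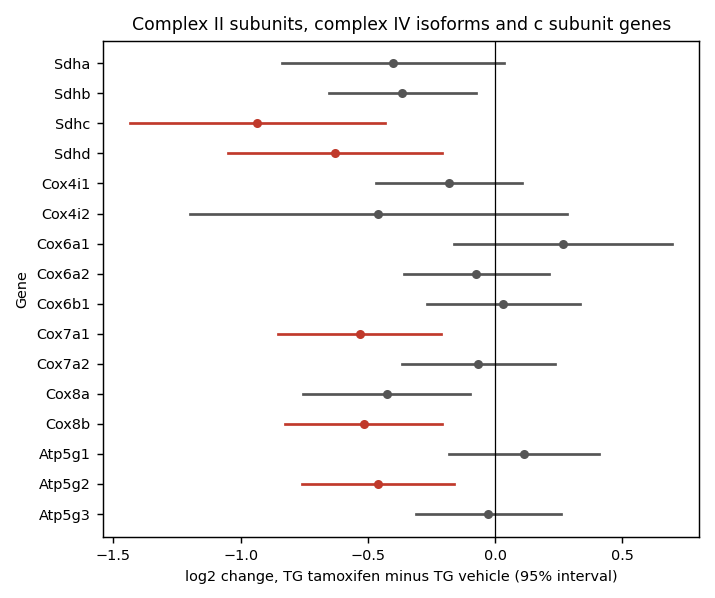
Log2 change in TG tamoxifen against TG vehicle, with its 95% interval, for complex II subunits, complex IV isoforms and the c subunit genes of complex V, red where the adjusted p is under 0.05. Sdhc, Sdhd, Cox7a1, Cox8b and Atp5g2 are red, and the interval of Cox4i2 is the widest (-1.20 to 0.28).

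In complex V, 5 of 17 genes were lower, 3 of them in the rotary head. Of 5 genes of the F1 head and central stalk, Atp5d (delta subunit), Atp5e (epsilon subunit) and Atp5a1 (alpha subunit) were lower. Atp5d read 16.54, 16.64 and 16.60 in TG tamoxifen, 17.28, 17.58 and 17.42 in TG vehicle, 17.34, 17.61 and 17.60 in NTG tamoxifen and 17.56, 17.53 and 17.74 in NTG vehicle. Every TG tamoxifen array was below every other array, and Atp5d fell by 0.83 ± 0.15 against TG vehicle (limma adjusted p = 0.0043), on a probe set that may match several transcripts. Atp5e, also on such a probe set, fell by 0.80 ± 0.17 (adjusted p = 0.0075) and Atp5a1 by 0.62 ± 0.16 (adjusted p = 0.018). Atp5a1 read 17.28, 17.36 and 17.29 in TG tamoxifen and 18.13, 17.94 and 17.73 in TG vehicle, and its NTG tamoxifen arrays, at 17.25, 17.57 and 17.36, reached the same low range. Atp5b, the catalytic beta subunit, had -0.30 ± 0.14 (adjusted p = 0.14), and Atp5c1, the gamma subunit that turns in the head, -0.34 ± 0.14 (adjusted p = 0.11). In the peripheral stalk Atp5o, which ties the stalk to the head, fell by 0.53 ± 0.14 (adjusted p = 0.020) and the other 3 genes did not pass, and among the membrane subunits e, f and g 0 of 3 passed.

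The 3 genes for the c subunit gave different values for the same mature protein. Atp5g2 read 16.54, 16.66 and 16.60 in TG tamoxifen and 17.04, 17.00 and 17.15 in TG vehicle, without overlap, and fell by 0.46 ± 0.14 (limma adjusted p = 0.030). Atp5g3 had a log2 change of -0.03 ± 0.13 (95% interval -0.31 to 0.26) and Atp5g1 one of 0.11 ± 0.13 (-0.18 to 0.41). Mean log2 intensity was 16.86 for Atp5g2, 17.99 for Atp5g1 and 18.13 for Atp5g3, against an array maximum of 18.69. The values of Atp5g1 and Atp5g2 depended on the probe set. With the mean of all probe sets of a gene Atp5g2 turned to 0.18 (adjusted p = 0.65) and Atp5g1 to -0.92 (adjusted p = 0.021), and Atp5g1 was also negative with the deposited scaling (-0.18) and with median centring (-0.03).

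The 46 members that were not called ran from -0.52 (Ndufv1) to 0.42 (Cox7c). Ndufa2, Atp5g1, Cox6a1, Cox6b1, Cox6c and Cox7c were the members with a positive value. In a separate fit of single probe sets, 64 of 152 member probe sets above the filter were lower in TG tamoxifen against TG vehicle and 0 higher. The share over all probe sets of that fit is not given here. Since 43 genes had several of these probe sets, they are not separate members. Of 67 probe sets that did not stand for their gene, 63 had the sign of the one that did, and 0 gave a call in the opposite direction. The brightest members showed small values. The 10 members with a mean log2 intensity of 18 or more, against an array maximum of 18.69, had changes from -0.37 to 0.03 and 0 were lower in limma (2 of them, Sdhb and Atp5c1, had an unadjusted p under 0.05), whereas all 32 lower members were among the 68 below that level. Whether signal near the top of the scale bears on these values was not tested.

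Other measures differed between the same groups. Of the cardiomyocyte markers 2 of 10 (Actn2 and Ryr2) were lower in TG tamoxifen, and their summed intensity was 2587070 to 2659010 against 2816150 to 2908060 in TG vehicle. Of the endothelial markers 4 of 6 (Cdh5, Emcn, Kdr and Tie1) were lower, with sums of 28865 to 31808 against 37850 to 48831, and of the fibroblast markers 2 of 6 (Dcn and Tcf21), with sums of 138709 to 153197 against 204747 to 223867. Among macrophage and leukocyte markers Aif1 and Ptprc of 6 rose, with sums of 90005 to 137719 against 49774 to 99973. The fibroblast sums lay between 143642 and 166776 in NTG vehicle and between 99941 and 147956 in NTG tamoxifen. TG vehicle was thus the highest of the groups in that sum. The ratio of 3' to 5' beta-actin signal, a sign of RNA quality, lay between 1.75 and 1.88 in TG tamoxifen and between 1.32 and 1.68 in TG vehicle. In the non-transgenic groups it lay between 1.78 and 1.97 with tamoxifen and between 2.12 and 2.43 with vehicle. The part of cell makeup and RNA quality in the members' changes was not tested.

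In non-transgenic hearts tamoxifen went with fewer calls. Lower members in NTG tamoxifen against NTG vehicle numbered 6 of 78 (7.69%), and 0 were higher, where 3.69% of all genes were lower and 4.37% changed in either direction. The median log2 change was -0.08 over the members and -0.01 over all genes. The arrays did not overlap in 25 members in the lower direction (17% of all genes) and in 8 in the higher direction (13.2%). Markers of other cells moved in this comparison too: Fabp4, of the adipocyte list, and Lum, 1 of 6 fibroblast markers, were lower. Only 1 of 4 adipocyte markers, Fabp4, lay above the filter, so the adipocyte sum that follows mostly repeats that gene. Summed adipocyte markers lay between 64557 and 91093 with tamoxifen and between 148347 and 180453 with vehicle, and summed endothelial markers between 31622 and 38729 and between 45547 and 48951, with 0 of 6 called in limma (2 at an unadjusted p under 0.05). Their part in the result was not tested.

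Ndufs1 read 15.25, 15.54 and 15.39 in NTG tamoxifen and 16.40, 16.50 and 16.38 in NTG vehicle, and fell by 1.03 ± 0.23 (limma adjusted p = 0.030). Ndufa5 read 15.88, 16.87 and 15.95 against 17.37, 17.40 and 17.48, and fell by 1.18 ± 0.26 (adjusted p = 0.032). In both genes the groups did not overlap, and in Ndufa5 NTG tamoxifen 2 stood about a log2 unit above its group. The P module gene Ndufb3 fell by 0.89 ± 0.21 (adjusted p = 0.040) and the Rieske protein gene Uqcrfs1 by 0.67 ± 0.16 (adjusted p = 0.037).

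Sdha, the catalytic subunit of complex II, read 15.92 to 16.29 on the 3 NTG tamoxifen arrays and 16.67 to 17.01 on the 3 NTG vehicle arrays, and fell by 0.79 ± 0.20 (limma adjusted p = 0.048). With the mean of all its probe sets the change was -0.26 (adjusted p = 0.66). Cox7c, a small subunit of complex IV, read 8.21, 8.92 and 7.63 against 10.16, 9.96 and 10.50, and fell by 1.95 ± 0.48 (adjusted p = 0.045). Its NTG tamoxifen arrays lay below the level of the filter (9.42), which the gene passed through its other groups, so the size of this and every other difference of Cox7c from NTG tamoxifen is uncertain. Cox6c, another small subunit, had 17.25, 17.70 and 16.79 against 18.04, 18.15 and 18.15, a log2 change of -0.87 ± 0.23 that just missed the threshold (adjusted p = 0.054). In these 3 genes every NTG tamoxifen array lay below every NTG vehicle array.

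The 6 calls were not stable to single arrays. Without the array labelled NTG tamoxifen 1, 0 members passed in limma (12 had an unadjusted p under 0.05), and the same count of 0 was found without NTG tamoxifen 3, TG tamoxifen 2 or any of NTG vehicle 1, 2 and 3 (11 to 15 unadjusted). Without the array labelled NTG tamoxifen 1 the log2 changes themselves moved little: -0.96 for Ndufs1, -1.001 for Ndufa5, -0.81 for Ndufb3, -0.59 for Uqcrfs1, -0.75 for Sdha and -1.93 for Cox7c. Only Ndufs1 passed without TG tamoxifen 1, and Ndufa5 and Ndufs1 without TG tamoxifen 3. The count was 8 without NTG tamoxifen 2.

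Of the 32 members lower with tamoxifen in TG hearts and the 6 in NTG hearts, 2 were in both, Ndufs1 and Uqcrfs1, which is 6.25% of the first set and 33.3% of the second. Over all genes 65 were lower in both, 4.04% and 15.8% of the respective sets. Over the 78 members the log2 changes of the 2 comparisons, which share no array but share an estimate of the spread, had a Pearson r of -0.24 and a Spearman rho of -0.17, against 0.06 and 0.02 over all 11165 genes. Without the array labelled NTG tamoxifen 1 they were -0.35 and -0.30 over the members and -0.17 and -0.17 over all genes. In that setting 0 members were called lower in NTG hearts, so none could be in both sets. Over all genes 37 were then lower in both, 2.02% and 10.7% of the respective sets. These correlations are across genes, which are not independent replicates. Of the members described above, 5 that fell in TG hearts had these log2 changes in NTG hearts, none of them called: 0.13 ± 0.17 for Ndufs8, -0.15 ± 0.20 for Ndufs3, 0.03 ± 0.23 for Sdhc, -0.23 ± 0.16 for Uqcrc1 and -0.10 ± 0.15 for Atp5d. Without the array labelled NTG tamoxifen 1 the values were 0.24, 0.073, 0.32, -0.092 and -0.0071 in the same order, and again none was called. These 5 do not stand for all members that fell in TG hearts. Besides Ndufs1 and Uqcrfs1, some had lower means in NTG tamoxifen than in NTG vehicle without a call. Those means were 15.89 against 16.42 for Sdhd, 17.39 against 17.85 for Atp5a1 and 17.33 against 17.68 for Uqcrc2.

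**Figure D5:**
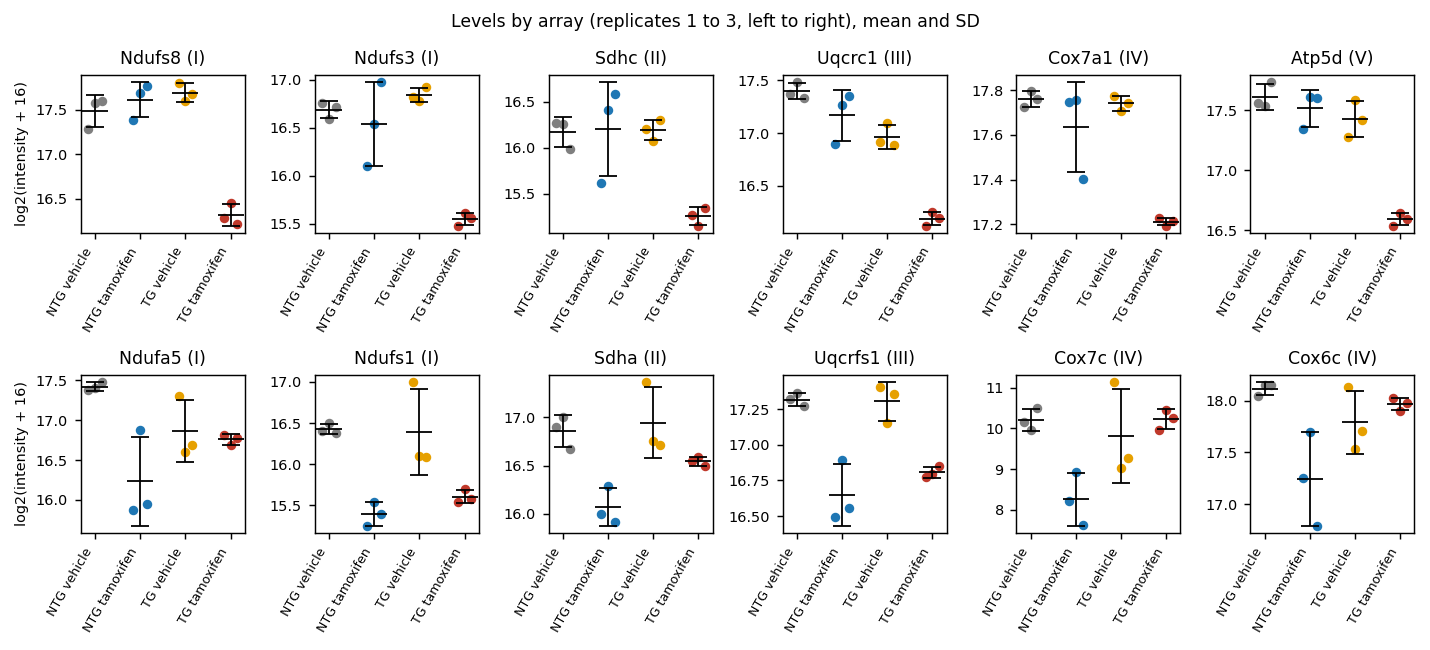
Log2(intensity + 16) on each array by group, with the mean and SD of 3 arrays, for 6 genes that were lower in TG tamoxifen (upper row) and 6 that were low in NTG tamoxifen (lower row); vertical scales differ between panels. In the upper row the TG tamoxifen points lie below all others, and in the lower row NTG tamoxifen has the lowest mean of every panel.

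Whether tamoxifen acted differently in TG than in NTG hearts was tested in the same fit, which sets the 2 tamoxifen effects above against each other. It passed for 15 of 78 members, 14 with a lower effect in TG and 1 with a higher effect, where 6.76% of all genes passed in the lower and 7.51% in the higher direction (14.3% in all). The 14 comprised 9 genes of complex I, 1 of complex IV and 4 of complex V, and none of complexes II and III (1 gene of each had an unadjusted p under 0.05 in limma).

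Ndufs8 had the largest difference of the 14, -1.50 ± 0.24 (limma adjusted p = 0.010). Ndufs3 and Ndufb10 each had -1.14 (adjusted p = 0.025), and Ndufb7 had -0.87 ± 0.22 (adjusted p = 0.025). In complex V, Atp5e (-0.88 ± 0.24), Atp5d (-0.74 ± 0.22), Atp5o (-0.73 ± 0.20) and Atp5g2 (-0.72 ± 0.19) passed, and in complex IV Cox8a (-0.73 ± 0.21). With median centring the difference of Cox8a was -0.37 (adjusted p = 0.30). The difference of Atp5g2 was 0.0013 with the mean of all its probe sets. Cox7c went the other way, 2.37 ± 0.68 (adjusted p = 0.041), with its fall in NTG tamoxifen and no call in TG. Its NTG tamoxifen arrays lay below the filter level (9.42), so the size of that difference is uncertain.

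Single arrays moved this count too. Leaving out the array labelled NTG tamoxifen 1, or TG vehicle 1, gave 19 in either case. It was 9 without NTG tamoxifen 2 and 3 without NTG tamoxifen 3. Leaving out TG tamoxifen 1, 2 or 3 gave 1, 4 and 2, TG vehicle 2 or 3 gave 4 each, and NTG vehicle 1, 2 or 3 gave 2, 1 and 3. With median centring the 15 became 4, of which Cox7c and Ndufa5 were higher and Ndufb10 and Ndufs8 lower.

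With the drug in both genotypes, TG tamoxifen had 30 of 78 members lower and 2 higher than NTG tamoxifen, where 20.6% of all genes were lower and 19% higher (39.5% in all). This comparison shares its arrays with those above. From complex I to complex V, 17 of 34, 2 of 4, 2 of 8, 4 of 15 and 5 of 17 were lower. All TG tamoxifen arrays lay below all NTG tamoxifen arrays in 44 members (27% of all genes) and above them in 5 (24%). Ndufa4l2 fell by 1.78 ± 0.24 (limma adjusted p = 0.00042), Ndufs8 by 1.30 ± 0.17 (adjusted p = 0.00035), Uqcrc1 by 0.98 ± 0.16, Sdhc by 0.94 ± 0.23 and Atp5d by 0.92 ± 0.15. Sdhb, which missed the threshold against TG vehicle, fell by 0.38 ± 0.13 here (adjusted p = 0.041), and Uqcr11 by 0.58 ± 0.16 (adjusted p = 0.015). Other cells' markers also differed: 3 of 6 macrophage and leukocyte markers were higher (Aif1, Lyz2 and Ptprc), as were Fabp4 of the adipocyte list and Lum of the 6 fibroblast markers. Markers that were lower were 3 of 6 endothelial (Cdh5, Kdr and Tie1), 2 of 3 smooth muscle (Myh11 and Tagln) and 2 of 10 cardiomyocyte ones (Actn2 and Tnni3). Their part in the members' changes was not tested. The rises were Cox7c (1.97 ± 0.48, adjusted p = 0.0076) and Cox6c (0.72 ± 0.23, adjusted p = 0.026), the genes that were low in NTG tamoxifen. Cox7c lay below the filter level (9.42) on its NTG tamoxifen arrays and passed the filter through its other groups, so its rise is uncertain in size. The count of 32 was also 32 without the array labelled NTG tamoxifen 1, and it was 20 without TG tamoxifen 1 or 2 and 21 without NTG tamoxifen 2 or 3.

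Without the drug the transgene went with no call. In TG vehicle against NTG vehicle 0 of 78 members passed in limma, where 1.39% of all genes were higher and 2.24% lower (3.63% in all), and 5 had an unadjusted p under 0.05: Cox8a (0.47 ± 0.15), Ndufv2 (0.32 ± 0.14), Ndufa9 (0.32 ± 0.15), Uqcrc1 (-0.43 ± 0.16) and Ndufa4l2 (-0.71 ± 0.24). The smallest adjusted p was 0.10, and the median log2 change was -0.01 over the members and 0.01 over all genes. Without TG vehicle 2, Ndufa4l2 passed at -1.0 (adjusted p = 0.028). Among the cell type markers 1 of 6 endothelial and 1 of 3 smooth muscle ones were lower in TG vehicle than in NTG vehicle, and no other was called.

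Genes that work with the complexes but lie outside the symbol rule were also lower in TG tamoxifen against TG vehicle. Cyc1, the cytochrome subunit of complex III, fell by 0.56 ± 0.15 (limma adjusted p = 0.019), and Ndufab1, the acyl carrier subunit of complex I, by 0.59 ± 0.16 (adjusted p = 0.021), 2 of 4 such genes. Of the enzymes and helpers of coenzyme Q (ubiquinone) synthesis 7 of 12 were lower and 0 higher, with a median of -0.77. Over all genes 14.4% were lower and 10.4% higher. Coq9, a lipid-binding protein of that pathway, fell by 1.87 ± 0.23 (adjusted p = 0.0016) and Coq10a by 1.18 ± 0.15 (adjusted p = 0.0017). Coq2, Coq5 and Pdss2, 3 of 12 in the same list, were lower in NTG tamoxifen against NTG vehicle, where 3.69% of all genes were lower. Etfdh, which passes electrons from fatty acid oxidation to ubiquinone, fell by 1.52 ± 0.29 in TG hearts (adjusted p = 0.0051), and Etfa, a subunit of its electron donor, fell by 1.24 ± 0.27 in NTG hearts (adjusted p = 0.030).

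Assembly factors, the proteins that build the complexes and are not part of them, had 16 of 48 lower and 0 higher in TG tamoxifen against TG vehicle, with a median of -0.35. They were 5 of 15 for complex I, 2 of 4 for complex II, 2 of 5 for complex III, 5 of 20 for complex IV and 2 of 4 for complex V. Among them Ndufaf3 of complex I fell by 1.12 ± 0.18 (limma adjusted p = 0.0028), Sdhaf4 of complex II by 1.09 ± 0.22, Uqcc2 of complex III by 0.83 ± 0.19, Surf1 of complex IV by 0.60 ± 0.14 and Fmc1 of complex V by 1.02 ± 0.14 (adjusted p = 0.0017). In NTG tamoxifen against NTG vehicle 2 of 48 were lower, Lrpprc and Cox17, both of complex IV. In TG tamoxifen against NTG tamoxifen 12 were lower and 12 higher. Over all genes 14.4% were lower in the first of these comparisons, 3.69% in the second and, in the last, 20.6% lower and 19% higher, so that the counts of assembly factors in the last 2 were near those of all genes.

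Of 13 transcriptional regulators of these genes, Esrra (ERR alpha) fell by 0.81 ± 0.18 (limma adjusted p = 0.010) and the coactivator gene Ppargc1a by 1.14 ± 0.38 (adjusted p = 0.045) in TG tamoxifen against TG vehicle. In the fit of single probe sets that value of Ppargc1a had an adjusted p of 0.056, and its 5 probe sets ran from -1.42 to -0.89. The other probe set of Esrra, close to the filter at a mean of 9.84, gave 0.36 (limma adjusted p = 0.49) in that fit. Esrrb was not called on its brightest probe set (-0.49), while another gave -1.47 (adjusted p = 0.0083). Pprc1 rose by 0.59 ± 0.18 (adjusted p = 0.033). Yy1 rose by 0.73 ± 0.15 (adjusted p = 0.0061) on its brightest probe set, but another of its probe sets was lower by -1.02 (adjusted p = 0.0087 in the fit of single probe sets), so its direction is not settled. With 2 of 13 lower and 2 higher in TG tamoxifen against TG vehicle, the counts were near the shares of all genes (14.4% lower and 10.4% higher). In NTG tamoxifen against NTG vehicle 0 of the 13 passed, where 4.37% of all genes changed in either direction.

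Short motifs known for these regulators were searched on both strands in the RefSeq promoters of GRCm38.p6 (250 bases before to 50 after the start), where 66 of 81 members were matched. The GABP motif CCGGAAG was in 17 of 66 members (25.8%) and 9.93% of all promoters. It was in 20.0% of members lower in TG tamoxifen against TG vehicle and in 31.6% of those tested and not called. The full NRF1 motif, the letters in capitals in Atp5g2, was in 6.06% of members and 1.07% of all promoters, and its core GCATGCGC, which it contains, in 13.6% and 3.05%. The YY1 motif AAGATGGC was in 13.6% of members and 3.19% of all, and the ERR alpha element TCAAGGTCA in 3.03% and 0.466%. The ER stress response element (ERSE), to which ATF6 binds, was in 0 of 66 members and 0.137% of all promoters. For the NRF1 core and the YY1 motif the shares were 12.0% among lower members and 15.8% among those not called. The full NRF1 motif went the other way, with 2 of 25 lower members (8.0%) and 2 of 38 not called (5.26%). So did the ERR alpha element, with 1 of 25 (4.0%) and 1 of 38 (2.63%). All these counts are small, and differences between lower members and those not called were not tested. A match describes these letters in this window, not binding.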

How the data were processed

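Each of 12 left ventricles was hybridised to an Affymetrix mouse whole-genome expression array. The authors deposited an intensity per probe set on a linear scale, scaled per array to a trimmed mean of 2500.02 (2% trimmed at each end, from the values). The software of that step is not given in the sources used here, and read depth does not apply, so the number of arrays limits the precision. Here 16 was added, log2 taken and arrays quantile normalized, 64 control probe sets were left out, each gene was represented by its brightest 1-symbol probe set, and genes with a mean under the 50th percentile (intensity 670, log2 9.42) were dropped. Symbols came from the platform annotation, and all 81 member genes were found in the RefSeq gene table by gene ID.

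All 12 arrays were fitted with limma 3.58.1 (R 4.3.3) by group, with empirical Bayes moderation (8 residual and 3.55 prior degrees of freedom) and Benjamini-Hochberg adjustment over 11165 genes. The script was tested on simulated data. Genes were named by a rule: per complex the 4 smallest adjusted p-values past 0.05 in TG tamoxifen against TG vehicle and 2 in each other comparison, up to 2 from each other list, and always the Sdh genes, the complex IV isoform pairs and the c subunit genes. Other members named to complete a module or a count were chosen after their values were seen. Members, lists and tests were chosen with earlier results of these data known. Replicate numbers did not pair the arrays: deviations of the same-numbered arrays correlated between -0.087 and 0.091 over 18 pairs. Alternatives were other scalings, offsets, filters and probe set summaries, eBayes with a trend, a replicate block, fits of fewer arrays, and other handling of arrays with conflicting labels.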

Additional observations from a re-analysis of the deposited data

Results flagged for a closer look

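Tamoxifen effects that differed between TG and NTG hearts, by the test of that difference in limma, were found for 15 of 78 members, the count given in the report. For Ndufs8 the difference was -1.50, with TG tamoxifen low and both NTG groups level. Ndufb7 differed by -0.87 and Atp5e by -0.88, each negative in TG and positive in NTG hearts. Atp5g2 differed by -0.72 and Cox8a by -0.73, and both had positive values in NTG hearts (0.26 and 0.30). With the mean of all its probe sets Atp5g2 differed by 0.0013 and was not called. With median centring Cox8a differed by -0.37 and was not called. Cox7c differed by 2.37, in the opposite direction, on a probe set whose NTG tamoxifen arrays lay below the filter on dim signal, so that its size is uncertain.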

How the results depend on the processing

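With TG vehicle 3 counted as TG tamoxifen, the members called numbered 0 in TG tamoxifen against TG vehicle (32 as reported), 0 in NTG tamoxifen against NTG vehicle (6), 13 in TG tamoxifen against NTG tamoxifen (32) and 0 for the difference of the tamoxifen effects (15), with 16, 14, 21 and 8 at an unadjusted p under 0.05 in limma. With TG vehicle 3 and TG tamoxifen 1 left out they were 6, 0, 19 and 0 (31, 15, 31 and 21 unadjusted), and with no filter on dim probe sets 17, 0, 21 and 1, with more genes to adjust over. Leaving out each array in turn gave 16 to 36, 0 to 8, 20 to 33 and 1 to 19, and 0 to 1 in TG vehicle against NTG vehicle. A filter at the 25th percentile gave 0 in NTG hearts and 4 for the difference, and the eBayes trend 12 and 32. In NTG hearts the mean of the probe sets of a gene gave 3 (Ndufa5, Ndufs1 and Cox6c), and fitting only the groups compared gave 0 (13 unadjusted), and 20 in TG against NTG tamoxifen. Median centring gave 17 there (2 higher, 15 lower) and 4 for the difference. The cause of these changes was not tested. With the replicate number as a block the counts were 26 in TG hearts, 0 in NTG hearts (15 unadjusted), 25 between the tamoxifen groups and 6 for the difference; since the numbers did not pair the arrays, this stands as a setting only.

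Signs changed for few genes in TG tamoxifen against TG vehicle. Cox6b1 was -0.30 with the deposited scaling, -0.16 with median centring and -0.10 with the mean of probe sets, and Atp5g1 -0.18, -0.033 and -0.92. With that mean Cox8a was 0.016 and Atp5g2 0.18 (0.0013 for its difference of effects). Uqcrq was 0.017 without probe sets that may match several transcripts, and Atp5g3 ran from -0.051 to 0.012 when arrays were left out in turn. Of 959 values of called named genes under the alternatives, 665 kept their call and direction, 291 lost the call and 3 changed sign. The all-gene median in TG tamoxifen against TG vehicle was -0.07, -0.12 and 0.03 with the quantile, deposited and median scalings, where the members had -0.39, -0.56 and -0.41.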
